A study of Arabidopsis thaliana with 12 samples.

Results

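The seedlings that overexpress DPB2, a subunit of DNA polymerase epsilon, were compared with wild type, taking as 1 group the 6 libraries of its transgenic lines, 3 of DPB2oe1.11.5 and 3 of DPB2oe12.1.5, and setting them against the 3 wild-type Col-0 libraries. These 9 libraries were chosen by their genotype labels from the 12 of the series, whose other 3 come from the mutant abo4-1. Whole Arabidopsis thaliana seedlings of the Col-0 ecotype were sampled at growth stage 1.02 after growth on 0.5x MS medium at 20 °C and 65% humidity with 16 h of light, and no group was treated. The control group is wild type by its label, and both lines overexpress DPB2 in the same background. The labels do not give the promoter that drives DPB2, the number or position of insertions, the hour of harvest or whether replicates were grown separately, so p values measure the spread between these libraries only. For DPB2oe1.11.5 the library titles end in a different digit from the genotype labels, and the latter are used here. Only 2 transgenic lines were measured, each with 3 libraries.

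DNA polymerase epsilon synthesises the leading strand at the replication fork. In plants it is built from the catalytic subunit POL2A and the accessory subunits DPB2, DPB3 and DPB4, of which DPB2 is essential. When forks stall or DNA breaks, the kinases ATM and ATR activate the transcription factor SOG1, which in plants takes the place that p53 has in animals. SOG1 turns on repair genes such as BRCA1 and CDK inhibitors of the SIAMESE-RELATED family, which slow the cell cycle.

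The counted reads per library ranged from 10902547 to 29456111 in Col-0 and from 12205407 to 19595776 in the DPB2oe group. The libraries differed in the phase of clock genes within every group, and the clock phases were unevenly spread. LHY, a morning-expressed clock transcription factor, stood at 48.1, 7.44 and 7.23 CPM (counts per 1000000, with library sizes scaled by TMM) in Col-0 replicates 1 to 3. In DPB2oe1.11.5 it stood at 6.61, 217 and 8.97 CPM. In DPB2oe12.1.5 it was 202, 197 and 40.02 CPM. PRR5, a later-expressed clock repressor, was at 4.13, 35.9 and 33.3 CPM in Col-0. The values of DPB2oe1.11.5 were 34.7, 2.87 and 36.3 CPM, and those of DPB2oe12.1.5 were 0.723, 1.495 and 8.50 CPM. Thus 3 of the 6 DPB2oe libraries and none of the Col-0 libraries had LHY at 197 CPM or more. In two-sided exact permutation tests of 6 against 3 libraries, whose smallest possible p is 0.0238, neither log2 LHY (p = 0.262), log2 PRR5 (p = 0.357) nor the share of organelle reads (p = 0.333) passed, and adjusted over these 3 tests each p was 0.357. Counts below are therefore also given without the 4 libraries of highest LHY among all 12, an alternative chosen after seeing the data. The 4 are the 3 DPB2oe libraries at 197 CPM or more and abo4-1 replicate 2 (173 CPM). This leaves 3 DPB2oe libraries, replicates 1 and 3 of DPB2oe1.11.5 and only replicate 3 of DPB2oe12.1.5. In whole seedlings a smaller share of a cell type and less RNA per cell cannot be told apart.

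**Figure D1:**
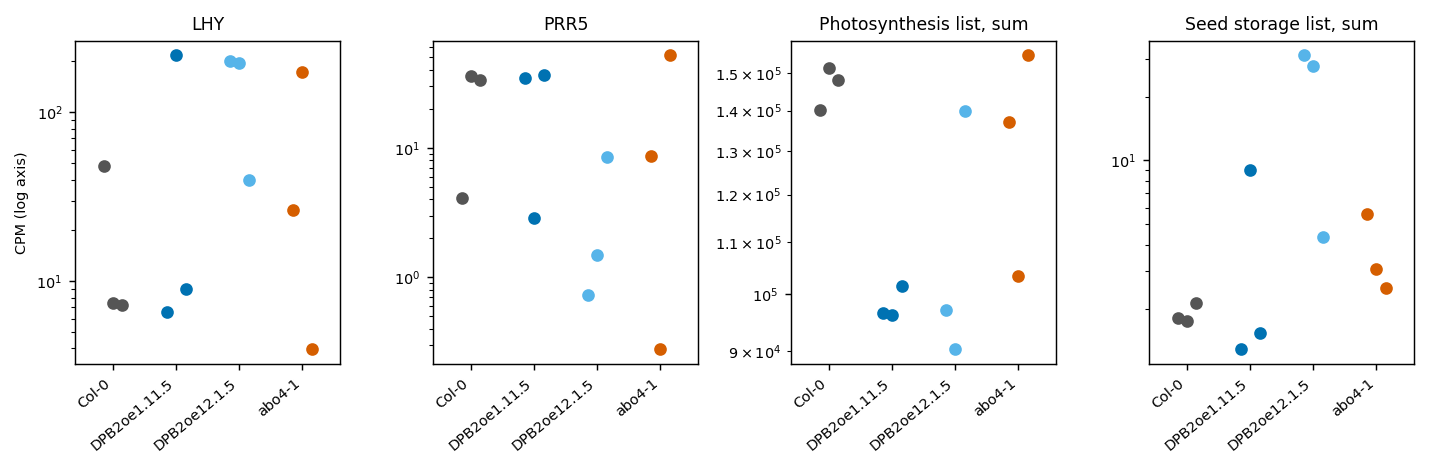
Levels of LHY and PRR5 and the summed levels of the photosynthesis and seed storage gene lists, in CPM on log axes, with 1 point per library and the abo4-1 libraries for reference. Replicate 2 of DPB2oe1.11.5 and replicates 1 and 2 of the other line lie at 197 to 217 CPM of LHY, while the Col-0 libraries lie at or below 48.1 CPM.

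Across the 19924 genes tested, 37 changed in the pooled comparison (0.186%, edgeR quasi-likelihood test, Benjamini-Hochberg adjusted p under 0.05). Of these, 19 were higher in DPB2oe (0.0954%) and 18 were lower (0.0903%). All 37 held in both lines, in that each line on its own differed from Col-0 in the same direction at an unadjusted p under 0.05. Among all genes tested, 930 (4.67%) met that condition in both lines, with 417 higher (2.09%) and 513 lower (2.57%). Both lines were set against the same 3 Col-0 libraries, so a low or high Col-0 value counts for both. In all 37 genes the groups did not overlap, with every DPB2oe library above or every one below Col-0, against 1398 of all genes tested (7.02%). The agreement of the lines and this separation were read from the libraries that gave the calls, so neither is separate support. The rises included DPB2 itself, 6 genes of the DNA damage response and the floral repressors MAF4 and MAF5, and the falls included the ABA phosphatase gene AHG3 and the copper chaperone gene CCH. Of the 37 loci, 34 were annotated as protein coding and 3 as pseudogenes, a description set beside no share over all genes tested.

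The set of calls changed when single libraries were left out. Leaving out a Col-0 library also shrinks the smaller group, which by itself tends to raise p values. Of the 37 genes, 18 passed without Col-0 replicate 1, 11 without Col-0 replicate 2 and 8 without Col-0 replicate 3. All 37 passed without DPB2oe12.1.5 replicate 3, and 19 to 25 without any other DPB2oe library. The 7 genes that passed with any of the 9 libraries left out were DPB2, BRCA1, TK1a, GMI1, SIP4, AT5G07610 and AT4G22960, all of them rises. Without the 4 libraries of highest LHY, DPB2, BRCA1, TK1a, AT5G07610 and AT4G22960 passed. With a clock score (log2 LHY minus log2 PRR5) as a covariate, an alternative also chosen after seeing the data, all 37 passed. Each of the 37 kept its sign under all 19 alternative settings.

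**Figure D2:**
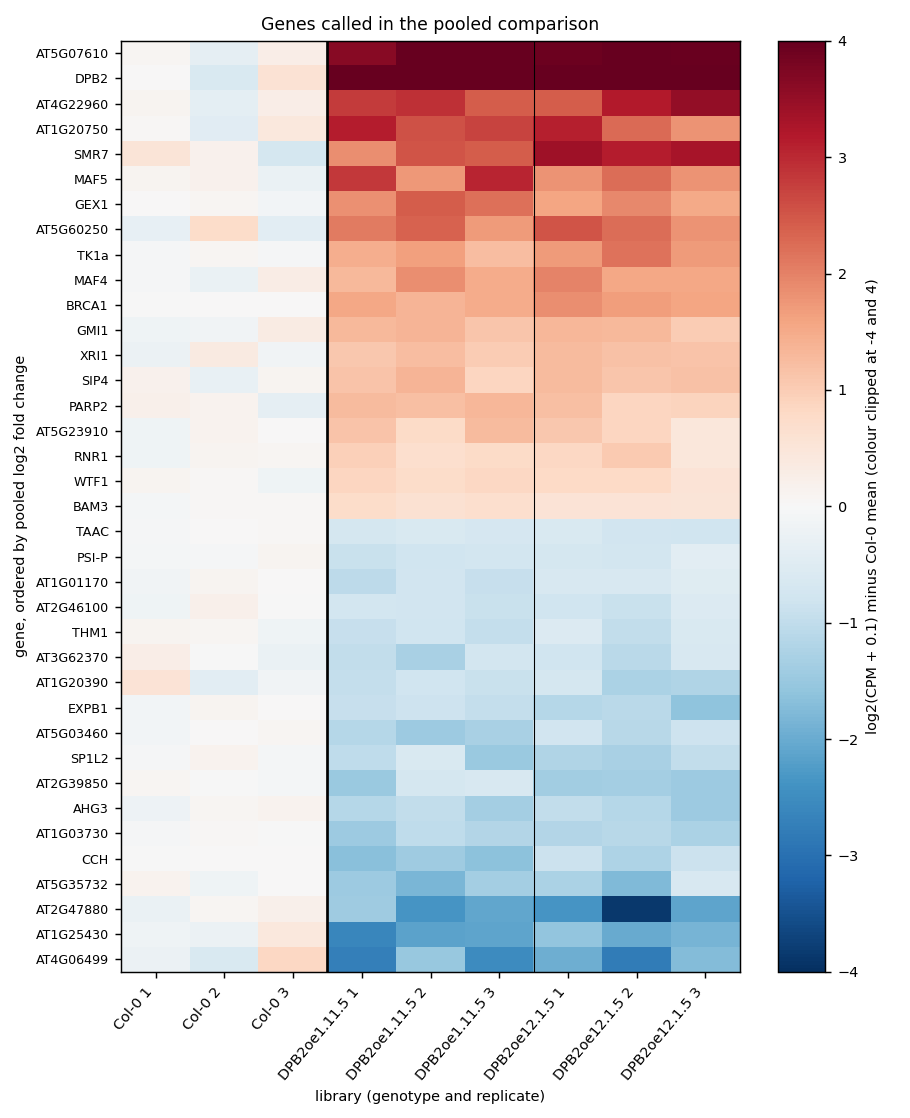
Log2 difference of each library from the Col-0 mean for the 37 genes, ordered by the pooled fold change, with 1 column per library and a pseudocount of 0.1 CPM. Colours are clipped at -4 and 4, the thick line separates Col-0 from the DPB2oe libraries and the thin line separates the lines. Every gene is the same colour in all 6 DPB2oe columns.

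DPB2 (AT5G22110, chromosome 5, 7330825 to 7334282 in TAIR10.1, protein coding) was the largest change that rested on an appreciable wild-type level. Its Col-0 values were 2.79, 1.76 and 4.14 CPM. Those of DPB2oe1.11.5 were 118, 106 and 117 CPM, and those of DPB2oe12.1.5 were 117, 110 and 117 CPM. The lowest DPB2oe library was thus far above the highest Col-0 library, and the lines overlapped. The mean rose from 2.90 ± 1.20 (SD, n = 3) to 114 ± 4.95 CPM (n = 6), a log2 fold change of 5.26 ± 0.23 (SE, adjusted p = 4.44e-08, edgeR). The lines differed by 0.02, with a 95% interval from -0.40 to 0.43. Reads from the transgene and from the endogenous gene cannot be told apart in these counts.

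The other polymerase epsilon subunits did not pass in the pooled comparison. POL2A, the catalytic subunit, was at 17.36, 16.2 and 15.7 CPM in Col-0 and between 16.5 and 33.4 CPM in DPB2oe, with a fold change of 0.62 on the log2 scale (adjusted p = 0.194, edgeR). Its DPB2oe12.1.5 replicate 3 overlapped the Col-0 range. In DPB2oe1.11.5 on its own POL2A passed, with a log2 fold change of 0.84 (adjusted p = 0.0453, edgeR). In DPB2oe12.1.5 it did not, with 0.35 (adjusted p = 0.325, edgeR). The lines differed by -0.49 (95% interval -0.86 to -0.12, adjusted p = 0.175, edgeR). DPB3-1 had a log2 fold change of 0.12 and DPB4 of -0.05. POL2B, a paralogue of POL2A, was not tested because of its low counts.

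The DNA damage response was the group with most members called. Of 33 listed genes tested, 6 rose (SMR7, TK1a, BRCA1, GMI1, XRI1 and PARP2) and none fell, where the background of rises was 0.0954%. This list, like the others, was chosen with earlier results of these data known, so its shares are descriptions only. The median log2 fold change of the list was 0.52, against 0.01 over all genes tested. A positive value was found in 28 of 33 members, against 10152 of 19924 genes tested. The DNA replication, G1/S and G2/M lists also leaned upward, with values given below. In 14 of the 33 members (42.4%) all 6 DPB2oe libraries exceeded all 3 Col-0 libraries, against 3.51% of all genes tested, and 14 were higher at an unadjusted p under 0.05 in each line, against 2.09%. With any 1 library left out, 3 to 8 members passed, the lowest without Col-0 replicate 3. Without the 4 libraries of highest LHY, 2 passed.

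**Figure D3:**
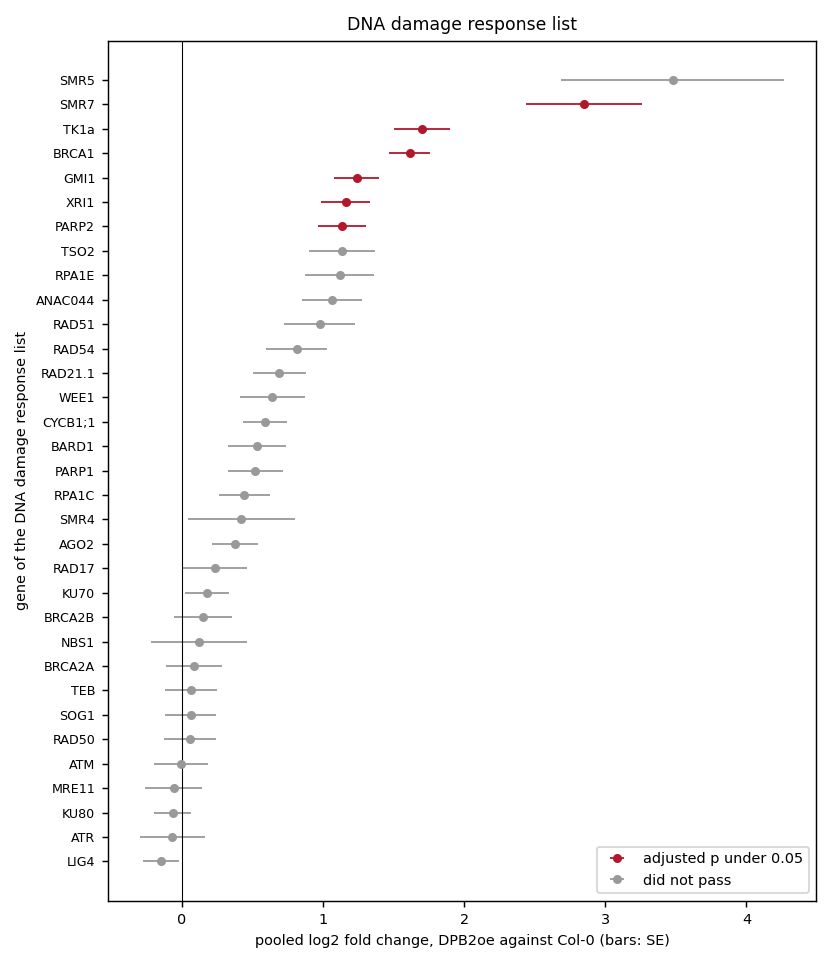
Pooled log2 fold change of the 33 tested genes of the DNA damage response list, with bars of 1 SE of the model. The 6 genes in red passed the adjusted p of 0.05, while SMR5 has a larger fold change with a wide error and the kinases ATM and ATR sit near 0.

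BRCA1 (AT4G21070, chromosome 4, 11247991 to 11252757), a ubiquitin ligase subunit of homologous recombination repair, was at 6.56, 6.65 and 6.69 CPM in Col-0. In DPB2oe it ranged from 17.3 to 24.5 CPM around a median of 19.9. The 3 Col-0 libraries were almost identical and the 6 DPB2oe libraries were well above them. Its log2 fold change was 1.61 ± 0.15 (adjusted p = 3.50e-04, edgeR), with 1.48 ± 0.15 for DPB2oe1.11.5 and 1.73 ± 0.15 for the other line.

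SMR7 (AT3G27630, chromosome 3, 10230892 to 10231567), a SIAMESE-RELATED inhibitor of cyclin-dependent kinases, was at 1.52, 1.17 and 0.584 CPM in Col-0. The level was 3.98, 6.37 and 5.94 CPM for DPB2oe1.11.5, and for DPB2oe12.1.5 it was 11.7, 9.79 and 10.9 CPM. All DPB2oe values were above Col-0, and the lines did not overlap. The log2 fold change was 2.85 ± 0.41 (adjusted p = 0.0134, edgeR). Without Col-0 replicate 3 the adjusted p was 0.0966, and without Col-0 replicate 2 it was 0.0739. In abo4-1 SMR7 reached 19.8 to 29.6 CPM, a difference from DPB2oe that was not tested.

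TK1a (AT3G07800), a thymidine kinase that salvages the nucleotide for DNA synthesis, was at 9.68, 10.5 and 9.62 CPM in Col-0 and at 23.6 to 45.2 CPM in DPB2oe, with a median of 32.0. It rose by 1.70 ± 0.20 on the log2 scale (adjusted p = 0.00305, edgeR). GMI1 (AT5G24280), a structural maintenance of chromosomes hinge-domain protein of recombination repair, was at 4.28, 4.30 and 6.004 CPM in Col-0 and 9.91 to 12.6 CPM in DPB2oe. Its log2 fold change was 1.24 ± 0.16 (adjusted p = 0.00580, edgeR). Neither gene's groups overlapped.

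XRI1 (AT5G48720), named for its induction by X-rays, was at 4.78, 7.24 and 5.05 CPM in Col-0 and 11.5 to 13.5 CPM in DPB2oe. It rose by 1.16 on the log2 scale (adjusted p = 0.0134, edgeR), and without Col-0 replicate 3 the adjusted p was 0.141 and without Col-0 replicate 1 it was 0.0709. PARP2 (AT4G02390), a poly(ADP-ribose) polymerase that acts at DNA breaks, was at 5.15, 4.99 and 3.51 CPM in Col-0 and 8.16 to 11.4 CPM in DPB2oe. Its log2 fold change was 1.13 (adjusted p = 0.0134, edgeR), with an adjusted p of 0.120 without Col-0 replicate 3 and 0.0569 without Col-0 replicate 2. Both genes were higher in all 6 DPB2oe libraries than in any Col-0 library.

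The rest of the list did not pass. TSO2, a small subunit of ribonucleotide reductase, had a log2 fold change of 1.13 (adjusted p = 0.0681, edgeR), ANAC044, a NAC factor downstream of SOG1, of 1.06 (0.0638), RPA1E, a single-strand binding subunit, of 1.12 (0.0887) and SMR5, a relative of SMR7, of 3.48 (0.0977). In all of these the 6 DPB2oe libraries lay above Col-0. The regulators upstream did not pass, with log2 fold changes of 0.06 for SOG1, -0.01 for ATM and -0.07 for ATR, and the signs of ATM and ATR turned under some alternatives.

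The 300 bases before the annotated start of each tested gene were searched on both strands for CTT and AAG separated by any 7 bases, the published consensus of SOG1 binding, and for TTTCCCGC, a site of E2F factors, in TAIR10.1. The first was found in 5 of the 19 rises (26.3%), 0 of the 18 falls and 2090 of 19792 windows of all tested genes (10.6%). In the damage list it was in 8 of 33 windows (24.2%). The second was in 1 of the 19 rises (5.26%), 0 of the 18 falls and 133 of 19792 windows (0.672%). These matches are descriptions of the letters only. The windows of SMR7, PARP2, BAM3 and AT1G20750 follow with the match in capitals and 20 bases either side, because they are the rises that hold it outside any annotated neighbour.
SMR7, chr3:10231578-10231630, minus strand: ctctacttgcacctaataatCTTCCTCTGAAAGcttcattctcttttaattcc
PARP2, chr4:1049650-1049702, plus strand: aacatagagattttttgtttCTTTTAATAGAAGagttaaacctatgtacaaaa
BAM3, chr4:10949394-10949446, plus strand: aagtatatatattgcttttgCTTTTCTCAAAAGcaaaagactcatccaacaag
AT1G20750, chr1:7209116-7209168, minus strand: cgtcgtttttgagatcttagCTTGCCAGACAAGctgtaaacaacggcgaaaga

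Both genes called in the floral repressor group rose. MAF4 (AT5G65070, chromosome 5, 25992193 to 25996202) and MAF5 (AT5G65080, 25997504 to 26002619) are MADS-box genes related to FLC that lie in a tandem array with MAF2 and MAF3. MAF4 was at 1.85, 1.57 and 2.39 CPM in Col-0 and 4.87 to 7.80 CPM in DPB2oe, a rise of 1.65 ± 0.22 on the log2 scale (adjusted p = 0.00779, edgeR; 0.0554 without Col-0 replicate 2). MAF5 was at 0.652, 0.685 and 0.478 CPM in Col-0 and 2.20 to 5.63 CPM in DPB2oe, with a log2 fold change of 2.502 ± 0.43 (adjusted p = 0.0316, edgeR; 0.228 without Col-0 replicate 3). The DPB2oe libraries were all above Col-0 in both. The neighbours MAF2 and MAF3 had log2 fold changes of -0.43 and -0.24 and did not pass. Of 7 FLC-group genes tested 2 rose, against 0.0954% of all genes tested, and none fell. The median was -0.24, with 0.004 for DPB2oe1.11.5 and -0.54 for DPB2oe12.1.5. FLC itself had a log2 fold change of 1.05 (adjusted p = 0.127, edgeR). It did not pass, but all 6 DPB2oe libraries lay above Col-0, as in MAF4 and MAF5 (3 of 7, 42.9%, against 3.51% of all genes tested). In the same 3 genes each line was higher at an unadjusted p under 0.05 (42.9%, against 2.09%). FLM, a relative of FLC, had -0.45 and SVP, a MADS-box partner of FLC, had -0.49. Neither passed, but in both all 6 DPB2oe libraries lay below Col-0 (2 of 7, 28.6%, against 3.51% of all genes tested) and each line was lower at an unadjusted p under 0.05 (28.6%, against 2.57%). In abo4-1 MAF4 was at 1.45 to 2.09 CPM and MAF5 at 0.349 to 0.890 CPM, a difference from DPB2oe that was not tested. Reads mapping to several places were removed, which can lower counts of related genes such as these.

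The DNA replication list had 1 member of 36 that rose, against 0.0954% of all genes tested, with a median log2 fold change of 0.27. This was RNR1 (AT2G21790), the large subunit of ribonucleotide reductase, at 41.7, 50.3 and 49.7 CPM in Col-0 and 63.9 to 96.4 CPM in DPB2oe. It rose by 0.79 ± 0.14 (adjusted p = 0.0449, edgeR) and passed only when DPB2oe12.1.5 replicate 3 was the library left out. None of 13 G1/S, 27 G2/M or 13 CDK inhibitor and endocycle genes passed, with medians of 0.24, 0.33 and 0.01. The CDK inhibitors SMR7, which passed, and SMR5 were counted in the DNA damage list and not in this one. Values were positive in 31 of 36 replication, 12 of 13 G1/S, 26 of 27 G2/M and 7 of 13 CDK inhibitor and endocycle genes. The medians of DPB2oe1.11.5 and then DPB2oe12.1.5 were 0.33 and 0.10 for replication and 0.52 and 0.16 for G2/M. They were 0.29 and 0.28 for G1/S and 0.02 and -0.005 for CDK inhibitor and endocycle genes. In these 4 lists, in that order, all 6 DPB2oe libraries exceeded Col-0 in 8.33%, 15.4%, 0% and 0%, against 3.51% of all genes tested. Members higher at an unadjusted p under 0.05 in each line made up 8.33%, 15.4%, 7.41% and 0%, against 2.09%.

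The other rises came from several functions. SIP4 (AT2G30360), a calcium-sensor-interacting protein kinase, was at 9.42, 6.85 and 9.08 CPM in Col-0 and 15.3 to 21.6 CPM in DPB2oe, with a log2 fold change of 1.15 ± 0.15 (adjusted p = 0.00580, edgeR). BAM3 (AT4G20270), a receptor kinase of meristem and phloem development, was at 32.8, 35.3 and 35.4 CPM in Col-0 and 48.8 to 56.9 CPM in DPB2oe, a log2 fold change of 0.60. WTF1 (AT4G01037), whose maize relative splices chloroplast introns, had a log2 fold change of 0.76 and AT5G23910, annotated as a microtubule motor, of 0.96. In these the groups did not overlap. BAM3, WTF1 and AT5G23910 each passed in at most 2 of the 9 runs that left out 1 library.

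Several rises lay at low counts, and the ratios given are pooled counts with exact intervals that cover counting error only. AT5G07610, an F-box gene, had 2 counts in the Col-0 libraries and 275 in DPB2oe, a depth-scaled ratio of 80.2 (95% interval 22.0 to 665). AT4G22960 had 10 and 180 counts, a ratio of 10.5 (5.58 to 22.3). AT1G20750, a RAD3-like helicase gene, had 11 and 161 counts, a ratio of 8.53 (4.64 to 17.44), and GEX1, a gene of nuclear fusion in gametes, had 10 and 98, a ratio of 5.71 (2.98 to 12.3). AT5G60250, a RING-finger gene, was at 0.744 to 1.76 CPM in Col-0 and 3.59 to 6.27 CPM in DPB2oe, a log2 fold change of 2.25 (adjusted p = 0.00762, edgeR). These were chosen after their values were seen, as they fall below the level at which genes were to be named. AT5G07610 and AT4G22960 passed with every library left out. Mean CPM in DPB2oe and abo4-1 were 2.73 and 2.62 for AT5G07610, 1.88 and 5.89 for AT4G22960 and 1.63 and 1.47 for AT1G20750. They were 0.973 and 0.894 for GEX1 and 4.86 and 30.2 for AT5G60250, and these differences were not tested.

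Of the falls, THM1, PSI-P and TAAC encode chloroplast proteins. THM1 (AT1G03680), a chloroplast thioredoxin m, was at 563, 551 and 472 CPM in Col-0 and 264 to 361 CPM in DPB2oe, a log2 fold change of -0.80 ± 0.13 (adjusted p = 0.0261, edgeR). PSI-P (AT2G46820), a thylakoid membrane protein, was at 1240, 1268 and 1426 CPM in Col-0 and 703 to 969 CPM in DPB2oe, a log2 fold change of -0.71 (adjusted p = 0.0449, edgeR). TAAC (AT5G01500), a thylakoid carrier of ADP and ATP, was at 19.7, 20.9 and 21.15 CPM in Col-0 and 11.7 to 13.5 CPM in DPB2oe, a log2 fold change of -0.70. All 3 were lower in every DPB2oe library. Without Col-0 replicate 3 the adjusted p was 0.0966 for THM1, 0.297 for PSI-P and 0.279 for TAAC.

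None of the 25 listed photosynthesis genes passed, but 24 had a negative log2 fold change, with a median of -0.42. In 9 of them (36.0%) all 6 DPB2oe libraries lay below Col-0, against 3.51% of all genes tested, and 11 were lower at an unadjusted p under 0.05 in each line, against 2.57%. The furthest were PSAK, a photosystem I subunit, with a log2 fold change of -1.14 (adjusted p = 0.0956, edgeR), and LHCB6, an antenna protein, with -1.06 (0.0934). The summed level of the list was 140084 to 151346 CPM in Col-0 and 90348 to 101453 CPM in 5 of the DPB2oe libraries, while DPB2oe12.1.5 replicate 3 was at 139928 CPM. That replicate also had the lowest LHY of its line. In DPB2oe1.11.5 replicates 1 to 3 the sums were 96574, 96205 and 101453 CPM, at LHY of 6.61, 217 and 8.97 CPM. The part of clock phase in these sums was not tested. Without DPB2oe12.1.5 replicate 3, 105 genes were called in place of 37, of which 65 in place of 18 were lower.

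AHG3 (AT3G11410), a protein phosphatase that represses abscisic acid (ABA) signalling, was the only called member of 19 ABA genes, against falls in 0.0903% of all genes tested, and the median of the list was -0.33. It was at 96.3, 118 and 123 CPM in Col-0 and 41.3 to 56.8 CPM in DPB2oe, a log2 fold change of -1.17 ± 0.16 (adjusted p = 0.00762, edgeR). CCH (AT3G56240), a copper chaperone, was the only called member of 9 copper genes, where the same background holds and the median was 0.02. It was at 481, 492 and 501 CPM in Col-0, while DPB2oe1.11.5 gave 156, 182 and 157 CPM and DPB2oe12.1.5 gave 273, 211 and 272 CPM. Its log2 fold change was -1.24 ± 0.18 (adjusted p = 0.0134, edgeR). Both genes were lower in all 6 DPB2oe libraries, and without Col-0 replicate 3 the adjusted p of each was 0.0966.

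**Figure D4:**
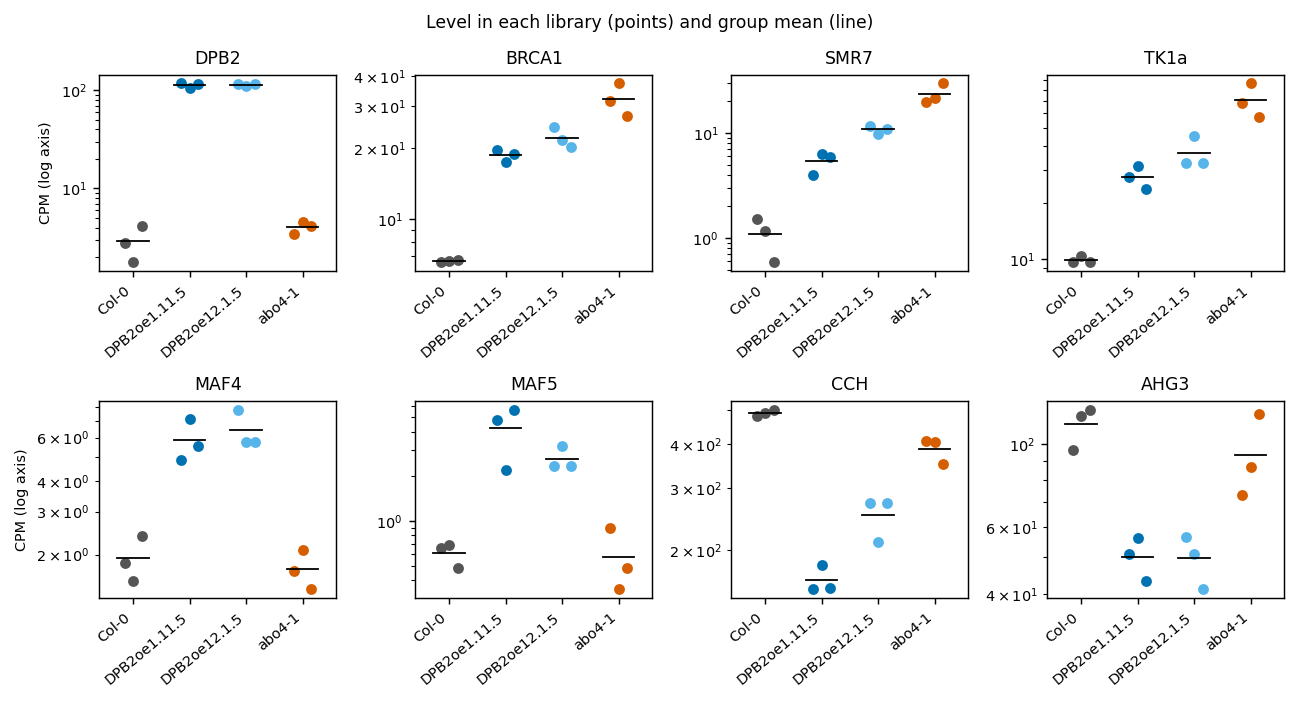
Levels in CPM on log axes of 8 genes, with 1 point per library and a line at each genotype's mean, abo4-1 included for reference. DPB2, BRCA1, SMR7, TK1a, MAF4 and MAF5 are higher and CCH and AHG3 lower in all 6 DPB2oe libraries than in the 3 Col-0 libraries.

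The other falls included genes of varied annotation and 3 pseudogenes. EXPB1 (AT2G20750), a beta-expansin that loosens cell walls, was at 29.8 to 34.8 CPM in Col-0 and 10.6 to 18.1 CPM in DPB2oe, a log2 fold change of -1.08. AT2G39850, annotated as a subtilisin-like protease, was at 21.0 to 23.2 CPM in Col-0 and 7.86 to 14.2 CPM in DPB2oe, a log2 fold change of -1.13. AT5G03460 was at 37.9 to 43.5 CPM in Col-0 and 14.9 to 24.2 CPM in DPB2oe, a log2 fold change of -1.09 (adjusted p = 0.0103, edgeR). In each of these the groups did not overlap. AT3G62370, annotated as a heme-binding protein, was at 23.2 to 33.4 CPM in Col-0 and 11.3 to 17.63 CPM in DPB2oe. Its log2 fold change was -0.93, and those of AT2G46100 and AT1G01170 were -0.78 and -0.74. Outside the naming rule, AT2G47880, of the glutaredoxin family, was at 4.39, 5.58 and 6.16 CPM in Col-0 and 0.272 to 1.94 CPM in DPB2oe. It had a log2 fold change of -2.28 (adjusted p = 0.0154, edgeR), AT5G35732 of -1.39, AT1G03730 of -1.23 and SP1L2, a SPIRAL1-like microtubule protein, of -1.09. The pseudogenes AT4G06499, AT1G25430 and AT1G20390 had log2 fold changes of -2.61, -2.43 and -1.02, and reads mapping to several places were removed from such repeated sequences. Without Col-0 replicate 3, none of the falls passed.

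The difference between the lines was also tested directly. Of all genes tested, 6 differed (0.0301%) and none of the 37 was among them. At an unadjusted p under 0.05, however, 3575 genes differed between the lines (17.9%), against 2596 (13.0%) in the pooled comparison with Col-0. The count at an adjusted p under 0.05 was 1124 without DPB2oe1.11.5 replicate 2 and 2 to 19 without any other library. DESeq2 gave 670, the clock score 128 and the run without a low-count filter 115. Among the 37 the difference (DPB2oe12.1.5 minus DPB2oe1.11.5) ranged from -0.78 to 0.99 on the log2 scale, and its 95% interval excluded 0 for 6 genes before adjustment. SMR7 was higher in DPB2oe12.1.5 by 0.99 (interval 0.42 to 1.56, adjusted p = 0.113) and CCH by 0.61 (0.32 to 0.91, adjusted p = 0.0914, edgeR). On its own, DPB2oe1.11.5 had 141 called genes (0.708%) and DPB2oe12.1.5 had 85 (0.427%). In both lines at once 22 were called (0.110%), of which 21 were among the 37 (0.105% of genes tested), and the other was MIOX4, a myo-inositol oxygenase gene. MIOX4 was at 1.01, 0.0978 and 0.213 CPM in Col-0. It reached 4.82 to 5.51 CPM for DPB2oe1.11.5 and 13.9 to 21.4 CPM for the other line, and its pooled adjusted p was 0.0514.

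**Figure D5:**
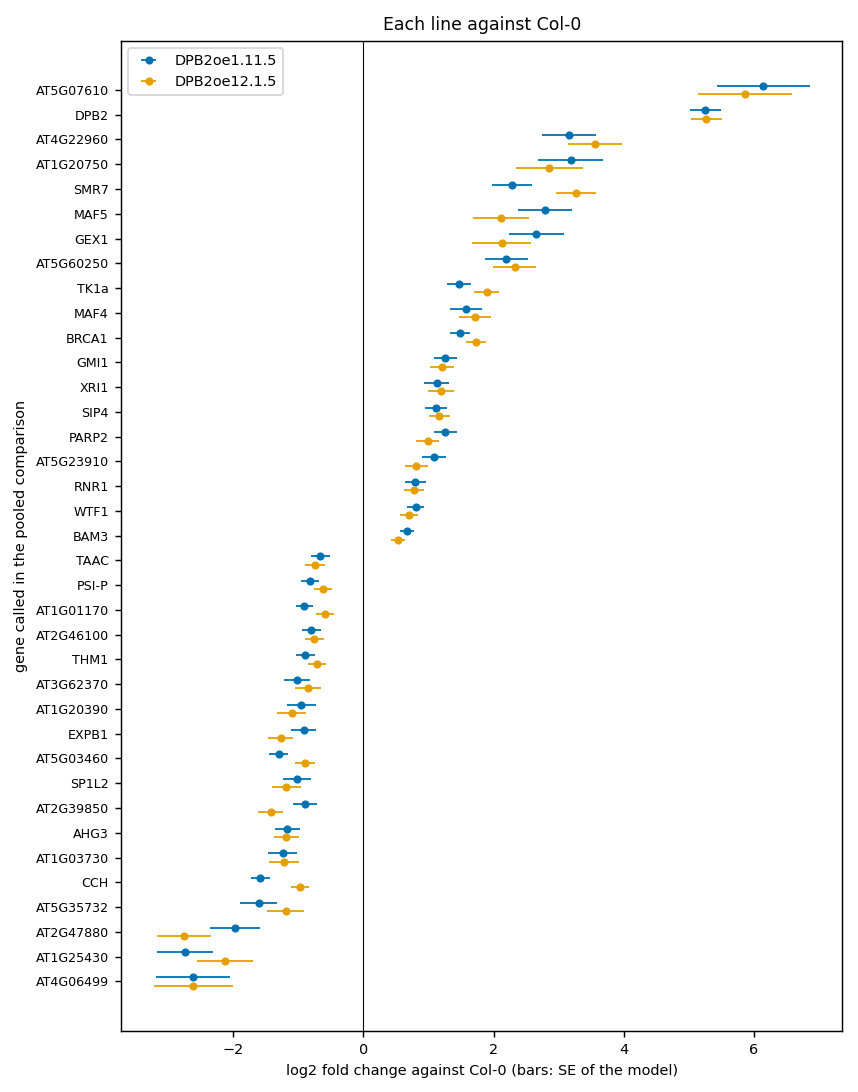
Log2 fold change against Col-0 of each line for the 37 genes, with bars of 1 SE of the model. Both lines lie on the same side of 0 for every gene, and the largest gap between them is that of SMR7 at 0.99.

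Markers of other tissues gave no calls. None of 15 root markers passed, with a median of -0.28, nor any of 8 trichome and root hair fate genes (0.12), 6 flower genes (0.42), 9 meiotic recombination genes (0.47) or 9 flavonoid genes (0.27). The lines parted in several of these medians, given for DPB2oe1.11.5 and then DPB2oe12.1.5. They were -0.66 and 0.10 for root, -0.008 and 0.23 for trichome and root hair fate and 0.70 and 0.03 for flower. For meiotic recombination they were 0.79 and 0.12, and for flavonoid genes 0.17 and 0.42. None of 7 heat shock genes passed, with a median of 1.19, although in 3 of them (42.9%) all 6 DPB2oe libraries lay above Col-0, against 3.51% of all genes tested, and 4 (57.1%) were higher at an unadjusted p under 0.05 in each line, against 2.09%. Their summed level was 14.7 to 17.61 CPM in Col-0. It was 35.0 to 44.7 CPM in the 3 DPB2oe libraries with LHY at 197 CPM or more and 15.9 to 19.1 CPM in the others, and the part of clock phase in these values was not tested. None of the 7 seed storage genes passed although their median was 2.87 (0.72 for DPB2oe1.11.5 and 3.51 for DPB2oe12.1.5). Their summed level was 1.76 to 2.13 CPM in Col-0, while replicates 1 and 2 of DPB2oe12.1.5 gave 31.3 and 27.8 CPM. Replicate 2 of DPB2oe1.11.5 gave 9.01 CPM. These are the 3 DPB2oe libraries with LHY at 197 CPM or more, and the others gave 1.29 to 4.37 CPM. The part of clock phase in these sums was not tested either. None of 18 clock genes (-0.08) or 8 salicylic acid and defence genes (-0.36) passed. The clock median was 0.27 for DPB2oe1.11.5 and -0.41 for DPB2oe12.1.5, and the defence median was -0.29 and -0.77. None of 4 myrosinase genes passed, with a median of -0.63, while in 2 of them, TGG2 and ESM1, all 6 DPB2oe libraries lay below Col-0, against 3.51%, and each line was lower at an unadjusted p under 0.05, against 2.57%.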

How the data were processed

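Whole seedlings were measured by stranded, single-end mRNA sequencing on an Ion Torrent Proton, per the labels. The authors deposited raw counts of reads for each locus, and reads with several hits had been removed, per the file headers. The genome build was TAIR10, per the submitters' processing notes. The sources used here name no aligner and do not state whether counting used strand. Of 33602 loci, 32835 matched TAIR10.1. The members and lists of genes were chosen with earlier results of these data known.

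Tests used edgeR 4.0.16 in R 4.3.3 (filterByExpr, TMM, glmQLFit with robust estimation, glmQLFTest; common biological coefficient of variation 0.245). All 12 libraries entered in 3 groups (Col-0, DPB2oe, abo4-1), and a second fit with a mean per genotype gave the tests of each line and between lines. Adjusted p values are Benjamini-Hochberg over the 19924 genes tested. CPM are TMM-scaled counts per 1000000. Named genes were the polymerase epsilon subunits, up to 12 rises and 12 falls of at least 10 CPM that held in both lines, up to 4 called members of each of 20 lists, the 5 called genes with the lowest p between lines, and LHY and PRR5. Any other gene was chosen after its values were seen. The script was tested on simulated data. Alternatives were RLE and upper-quartile scaling, DESeq2 1.42.0, other filters, other designs and libraries left out. Within groups, libraries correlated at 0.953 to 0.985 and none was a copy of another.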

Additional observations from a re-analysis of the deposited data

Results flagged for a closer look

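Of 79 quantities tested for a single library far from the other DPB2oe libraries, 3 were marked, where chance marks about 1 in 20. WTF1 was lowest in DPB2oe12.1.5 replicate 3 at 28.2 CPM, against 32.4 CPM in the nearest library. RPA1E was highest in DPB2oe12.1.5 replicate 2 at 6.80 CPM, against 4.43 CPM in the nearest. The summed photosynthesis list was highest in DPB2oe12.1.5 replicate 3 at 139928 CPM, against 101453 CPM in the nearest.

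The lines differed in 6 genes by edgeR (log2, DPB2oe12.1.5 minus DPB2oe1.11.5), none of them called in the pooled comparison. CYP78A8, a cytochrome P450 gene, differed by 2.40, AT1G30870 by 1.60 and EM6, a late embryogenesis gene, by 2.996, each higher in DPB2oe12.1.5. TGG2, a myrosinase gene, differed by -1.39, AT2G05040 by -5.03 and AT5G33251 by -6.73. AT2G05040 is a pseudogene at 4.82 to 7.04 CPM in DPB2oe1.11.5 and at most 0.425 CPM in Col-0. AT5G33251, a transcribed pseudogene, was at 26.6 to 39.7 CPM in DPB2oe1.11.5 and at most 0.884 CPM in DPB2oe12.1.5.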

How the results depend on the processing

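The count of called genes, 37, was 441 with DESeq2 (433 holding in both lines, 13 of the damage list, 18 of the called genes differing between lines). It was 76 without a low-count filter (76 holding) and 134 with the average of the line means (126 holding, 2 of the called genes differing between lines). It was 74 with the clock score (74 holding). Without the 4 libraries of highest LHY it was 8 (2 of the damage list), and holding is not given because only replicate 3 of DPB2oe12.1.5 is left. With 1 library left out it ran from 8 to 105, the number holding from 8 to 105, damage genes from 3 to 8 and called genes differing between lines from 0 to 2. Requiring a call in each line gave 21. The share of rises among calls was 51.4% in the main comparison, 28.4% with the average of the line means, 38.2% without the filter, 42.4% with DESeq2, 37.8% with the clock score, 34.1% with the 9 libraries and 38.6% with the replicate block. RLE scaling gave 39 calls, upper-quartile scaling 37 and a filter of 1 CPM 39. Replicate numbers did not pair the libraries (correlations of deviations from -0.22 to 0.31), and the replicate block gave 44 calls, 31 of them among the 37 (RNR1, AT5G23910, PSI-P, TAAC, AT1G01170 and AT4G06499 lost theirs). The 9 libraries alone also gave 44, with 26 of the 37. Signs turned for DPB3-1 (-0.16 without the high LHY libraries, -0.0850 with the clock score), DPB4 (0.061 without DPB2oe12.1.5 replicate 1, from -0.10 with 1 library left out, 0.018 without the high LHY libraries), LHY (-0.22) and PRR5 (0.15) without the high LHY libraries, PRR5 (0.24) with the clock score, ATM (0.025 without the filter, 0.0013 with 9 libraries, 0.0019 with the block, -0.11 to 0.15 with 1 library left out, the highest without Col-0 replicate 1, 0.07 without DPB2oe12.1.5 replicate 2 and 0.07 without replicate 3, 0.12 without the high LHY libraries, 0.025 with the clock score) and ATR (0.056 without Col-0 replicate 2, 0.04 without DPB2oe12.1.5 replicate 3). The causes were not tested. Depth limits genes of few counts, such as AT5G07610 with 2 in Col-0.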
